A study of Mus musculus with 6 samples.

Results

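The mouse Trim30 and neighbouring Trim genes on chromosome 7 were examined in immortalized bone marrow-derived macrophages (iBMDMs), as 10 genes chosen by name, Trim30a, Trim30b, Trim30c, Trim30d, Trim12a, Trim12c, Trim5, Trim34a, Trim34b and Trim6. All 10 were found among the 54532 Ensembl genes in the deposited tables. RNA-seq was performed on 6 libraries, 3 from control iBMDMs that carry a control shRNA (shControl) and 3 from PGAM5 KD iBMDMs that carry an shRNA against Pgam5 (shPGAM5), and every culture had received 100 ng/ml LPS for 4 hours. The cells are macrophages grown from mouse bone marrow that were made immortal by retroviral delivery of the oncogenes v-raf and v-myc, and the shRNA plasmids were packaged in lentivirus. Each group carries its own shRNA, so the knockdown and any other difference between the lines cannot be told apart, and whether either line is a clone is not given in the sources used here. No library of cells without LPS was analysed here. The labels do not say whether the 3 libraries of a group are independent cultures, so the spread between them may be technical. The genes were proposed with the comparison of PGAM5 KD and control libraries already known, in which Trim30a stood out. Their differences between the groups are therefore given as descriptions. No p-value is printed for any of them. How many passed a threshold is counted beside the same count or share over all genes, except for counts past an adjusted p-value and a fold change together under alternative settings.

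TRIM proteins carry a RING finger, a B-box and a coiled coil, and the RING finger makes many of them ubiquitin ligases. Type I interferon, which macrophages release after LPS engages TLR4, switches on a group of Trim genes through transcription factors that bind the interferon-stimulated response element (ISRE) in promoters. Trim30a encodes a brake on TLR signaling that promotes the loss of the TAK1 adaptors TAB2 and TAB3 and restrains the NLRP3 inflammasome. Trim12a, Trim12c and Trim5 are the mouse counterparts of human TRIM5, a protein known for binding retroviral capsids. Trim34a and Trim34b are relatives of human TRIM34, and Trim6 encodes a ligase that takes part in the induction of interferon.

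In the 6 libraries the depth lay between 18163464 and 24388917 fragments, and 1 fragment on 1 kb of exon was worth 0.0410 to 0.0551 FPKM, the unit in which the fragments on a gene are scaled to its exon length and to the depth of the library. Pgam5, the targeted gene, was at 17.1, 13.0 and 13.4 FPKM in the control libraries and at 4.33, 5.75 and 4.53 FPKM in the PGAM5 KD libraries. Of 8 macrophage markers, 7 averaged at least 1 FPKM and Mertk was at 0 in every library, and their summed level was 2802 to 2894 FPKM in control and 2526 to 2544 FPKM in PGAM5 KD libraries. The summed markers of neutrophils, fibroblasts, T cells and B cells came to at most 0.328 FPKM each in any library. FPKM summed over all genes was 304393 to 304889 in control and 317936 to 324298 in PGAM5 KD libraries. Rescaling every library to TPM, which removes the difference in summed FPKM, left Trim30a, Trim12c, Trim34a and Trim34b higher in PGAM5 KD cells, at 3.44, 0.93, 1.49 and 1.76 on the log2(TPM + 1) scale. The part of the marker difference in the values below was not tested.

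The 10 genes lie within 289057 bases of chromosome 7 of GRCm38, from 104218793 to 104507849. Trim6, Trim34a and Trim34b are on the plus strand and the other 7 on the minus strand. Within the Trim30 group, the coding sequence of Trim30a was 90.2% identical to that of Trim30d over 1488 aligned bases, 83.8% to that of Trim30c over 1484 bases, and 88.3% to that of the truncated Trim30b over 606 bases. Trim12c and Trim5 were 96.6% identical over 1491 bases, and Trim12a was 96.4% identical to Trim12c over 891 bases. Trim34a and Trim34b differed at 17 of 1455 coding bases, an identity of 98.8%. The first 120 bases of the coding sequence from the GENCODE M21 transcripts, which run into the RING finger, are shown for the 9 genes with a close paralog in the cluster (Trim6 has none) because fragments can be told apart only where such bases differ. Capitals mark the bases that differ from the gene named first in each group of paralogs.
Trim30a: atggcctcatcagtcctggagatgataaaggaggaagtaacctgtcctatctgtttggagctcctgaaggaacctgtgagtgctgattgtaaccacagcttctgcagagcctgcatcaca
Trim30b: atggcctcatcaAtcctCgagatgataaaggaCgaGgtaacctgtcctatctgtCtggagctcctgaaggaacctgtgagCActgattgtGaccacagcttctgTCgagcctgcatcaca
Trim30c: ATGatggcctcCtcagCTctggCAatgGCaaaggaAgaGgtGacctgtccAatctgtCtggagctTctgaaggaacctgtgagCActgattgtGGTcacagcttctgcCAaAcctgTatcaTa
Trim30d: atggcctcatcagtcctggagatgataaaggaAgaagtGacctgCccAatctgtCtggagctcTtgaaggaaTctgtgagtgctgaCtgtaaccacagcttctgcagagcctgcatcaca
Trim12c: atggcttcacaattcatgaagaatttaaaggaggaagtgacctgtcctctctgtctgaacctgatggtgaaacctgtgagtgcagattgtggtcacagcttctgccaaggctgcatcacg
Trim12a: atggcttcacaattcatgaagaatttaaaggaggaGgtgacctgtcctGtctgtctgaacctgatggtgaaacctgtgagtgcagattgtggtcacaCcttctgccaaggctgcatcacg
Trim5: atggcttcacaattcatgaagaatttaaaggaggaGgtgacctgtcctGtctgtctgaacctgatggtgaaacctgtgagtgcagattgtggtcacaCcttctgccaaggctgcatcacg
Trim34a: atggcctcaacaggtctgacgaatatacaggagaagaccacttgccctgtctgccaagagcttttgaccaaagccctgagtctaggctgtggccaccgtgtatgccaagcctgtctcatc
Trim34b: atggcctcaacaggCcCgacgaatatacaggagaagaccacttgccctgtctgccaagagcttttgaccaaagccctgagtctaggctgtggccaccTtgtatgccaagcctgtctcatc
Over this stretch, Trim30b, Trim30c and Trim30d differed from Trim30a at 10, 23 and 8 bases, and Trim30c carried 3 further bases at its start. Trim12a and Trim5 each differed from Trim12c at 3 bases, and Trim34b from Trim34a at 3 bases.

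**Figure D1:**
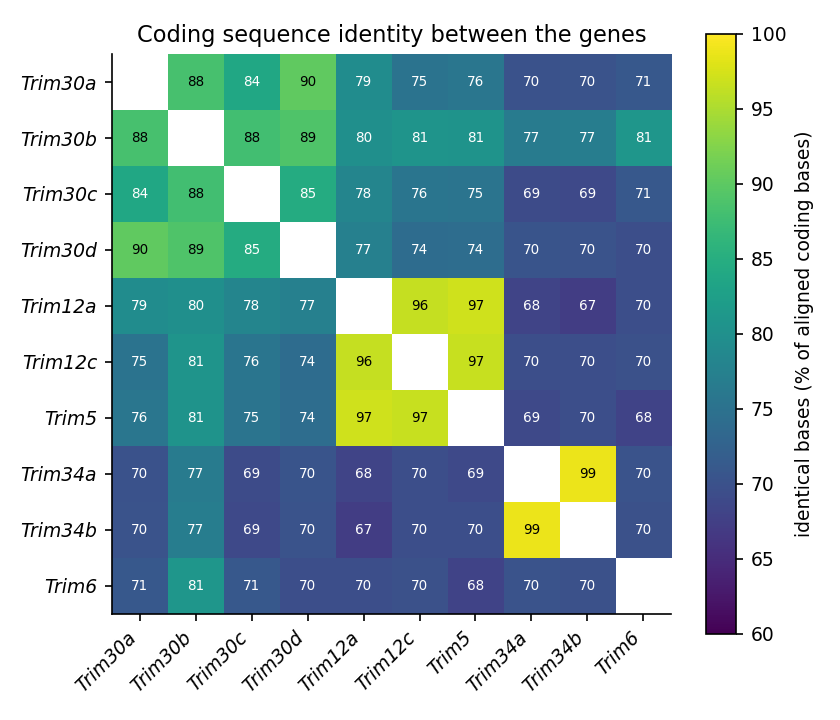
Identity of the coding sequences of the 10 genes, in percent of the aligned coding bases, for each pair of genes (rows and columns). The Trim12 and Trim5 genes and the Trim34 pair form blocks between 96.4% and 98.8%, the Trim30 genes a looser block between 83.8% and 90.2%.

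How far this likeness could affect counting was measured as the share of 100-base words in a gene's transcripts that also stand, on either strand, in a transcript of another gene. The share was 39.0% for Trim34a, 30.5% for Trim34b, 8.05% for Trim12c, 11.7% for Trim5, 3.29% for Trim12a, 4.41% for Trim30a and 4.57% for Trim30d. It was 0 for Trim30b, Trim30c and Trim6. Trim34a and Trim34b had 563 such words in common. Trim34a shared 1045 of its 2681 words, and those not shared with Trim34b stood in the antisense gene Gm47248. With words of 50 bases the share was larger, at 59.7% for Trim34a, 56.8% for Trim34b, 33.7% for Trim12c, 36.6% for Trim5 and 10.5% for Trim12a, and it lay between 0.660% and 7.49% for the Trim30 genes and Trim6. Of the 1574 words of 50 bases that Trim34a shared, 1049 were shared with Trim34b. The 176 words of 100 bases that Trim30a shared were all shared with Trim30d. Some exons of Trim34a (609 bases) also overlap the antisense gene Gm47248, which was listed at 0 in every library. On the same strand, exons of Trim12c share 100 bases with Gm27995 and those of Trim5 share 108 bases with Gm24846, both also at 0. Gm25405, Gm16464, Gm15133 and Gm8667 overlap Trim30a, Trim30d, Trim12a and Trim6 without shared exon bases. How fragments that match several genes were counted is not given in the sources used here.

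The promoters of all 10 genes, at 11 start sites, were matched by symbol in the RefSeq table for GRCm38.p6, and 300 bases around each start (250 before it and 50 after it) were searched for the core of the ISRE, which was taken as GAAA, any 2 bases and GAAA again, on either strand (TTTC, any 2 bases and TTTC on the other). The core was present in 6 of the 10 genes, Trim30a, Trim30d, Trim12c, Trim12a, Trim5 and Trim34a, and in 3.99% of all 27025 genes in the table. For Trim30b the start in the table, 104358646, lies inside the gene as annotated in GENCODE M21, whose 5′ end is at 104369884. The sequence before that end was not searched. A gamma-activated site, TTCNNNGAA, was present in Trim30c alone among the 10 genes, and in 9.55% of all genes. The windows from 100 bases before to 30 bases after the start are shown for the genes with a measurable level or a match, 5′ to 3′ on the strand of the gene, with the ISRE core in capitals.
Trim30a, chr7:104465164-104465293, minus strand: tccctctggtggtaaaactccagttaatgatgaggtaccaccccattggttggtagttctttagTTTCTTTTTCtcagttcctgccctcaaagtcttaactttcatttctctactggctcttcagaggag
Trim30d, chr7:104507820-104507949, minus strand: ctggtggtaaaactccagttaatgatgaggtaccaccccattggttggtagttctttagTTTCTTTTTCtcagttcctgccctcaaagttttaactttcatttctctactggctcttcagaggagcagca
Trim30c, chr7:104400749-104400878, minus strand: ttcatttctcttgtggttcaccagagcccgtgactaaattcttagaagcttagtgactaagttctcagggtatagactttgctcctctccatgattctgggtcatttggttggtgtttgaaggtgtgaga
Trim12c, chr7:104353320-104353449, minus strand: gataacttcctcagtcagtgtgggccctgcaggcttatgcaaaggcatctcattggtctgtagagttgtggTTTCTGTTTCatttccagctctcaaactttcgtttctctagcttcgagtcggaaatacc
Trim5, chr7:104288077-104288206, minus strand: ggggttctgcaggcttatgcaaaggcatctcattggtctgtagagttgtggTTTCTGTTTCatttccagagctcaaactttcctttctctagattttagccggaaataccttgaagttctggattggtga
Trim12a, chr7:104315466-104315595, minus strand: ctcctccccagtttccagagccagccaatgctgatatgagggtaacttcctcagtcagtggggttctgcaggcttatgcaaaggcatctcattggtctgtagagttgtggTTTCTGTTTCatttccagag
Trim34a, chr7:104244357-104244486, plus strand: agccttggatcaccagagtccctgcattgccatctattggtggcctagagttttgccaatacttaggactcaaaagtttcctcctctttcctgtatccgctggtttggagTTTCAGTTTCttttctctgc
Trim34b, chr7:104329371-104329500, plus strand: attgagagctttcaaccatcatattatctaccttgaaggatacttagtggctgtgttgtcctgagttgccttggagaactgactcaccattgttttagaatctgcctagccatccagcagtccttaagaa
The core of Trim30a and that of Trim30d were the same 10 bases, TTTCTTTTTC, 36 and 41 bases before the start. A second start site of Trim30a in the table, at 104446125, had the same letters 3 bases into the transcribed part. Trim12c, Trim5 and Trim12a shared TTTCTGTTTC, 29 and 49 bases before the start in the first 2 genes and 11 bases after it in Trim12a. The promoters of Trim5 and Trim12a were identical over the 191 bases that aligned, and that of Trim5 was 95.2% identical to that of Trim12c over 230 bases. Trim30a and Trim30d were 92.7% identical over 245 bases. In Trim34a the letters TTTCAGTTTC stood 11 bases after the start. Although the coding sequences of Trim34a and Trim34b are nearly identical, the 250 bases before their starts were 66.7% identical over 201 aligned bases, and no core was in the window of Trim34b. Promoters from different groups of paralogs, aligned the same way, were 64.5% (Trim34b and Trim30a) to 79.7% (Trim34b and Trim30c) identical, so 66.7% is no sign of likeness. A match of letters is a description of the sequence, and its use in these cells was not measured.

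Trim30a was the most abundant of the 10 genes in PGAM5 KD iBMDMs. Trim30a (ENSMUSG00000030921, minus strand, 104409025 to 104465193) was at 1.82, 1.95 and 1.58 FPKM in the control libraries and at 26.3, 22.2 and 22.5 FPKM in the PGAM5 KD libraries. The 2 groups were far apart, with a spread within each that was small against the gap. The means were 1.79 ± 0.188 and 23.7 ± 2.29 FPKM (SD, n = 3), a ratio of 13.3. On the log2(FPKM + 1) scale the difference was 3.15 with a standard error of 0.08, the largest of the 10540 genes with a mean of at least 1 FPKM. It lay between 3.07 and 3.19 when any 1 library was left out. These values rest on 127 to 162 fragments per control library and 1658 to 2379 fragments per PGAM5 KD library.

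The 3 other Trim30 genes were near the limit of detection, and their fragments were found mostly in PGAM5 KD libraries. Trim30b (ENSMUSG00000052749) had 0 fragments in each control library and 8, 4 and 9 in the PGAM5 KD libraries, at least 6.28-fold higher relative to depth when the controls are set to 3 fragments over the group. Trim30c (ENSMUSG00000078616) had 0, 1 and 0 fragments in control libraries and 10, 16 and 9 in PGAM5 KD libraries, which is 0.215 to 0.513 FPKM in the latter. Both groups were apart for these 2 genes. The ratio for Trim30c was 31.4, with a 95% counting interval from 5.28 to 1275. Trim30d (ENSMUSG00000057596), a restriction factor gene also called Trim79, had 0, 1 and 0 against 3, 7 and 1 fragments, and its groups overlapped when scaled to depth. Its ratio of 9.86 had a counting interval from 1.43 to 425. Intervals and floors here cover counting error only. Since Trim30a carried 98.4% to 99.2% of the fragments of the Trim30 genes in PGAM5 KD libraries, the other 3 genes added little to the sum. Whether single fragments on Trim30b, Trim30c and Trim30d came from Trim30a was not tested. Sums over paralogs are given as CPM, which scales fragments to the depth of the library as FPKM does but not to exon length. On the log2 scale of CPM, the 2 groups differed by 3.74 (standard error 0.12) for the sum of the Trim30 genes, against 3.73 for Trim30a alone.

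**Figure D2:**
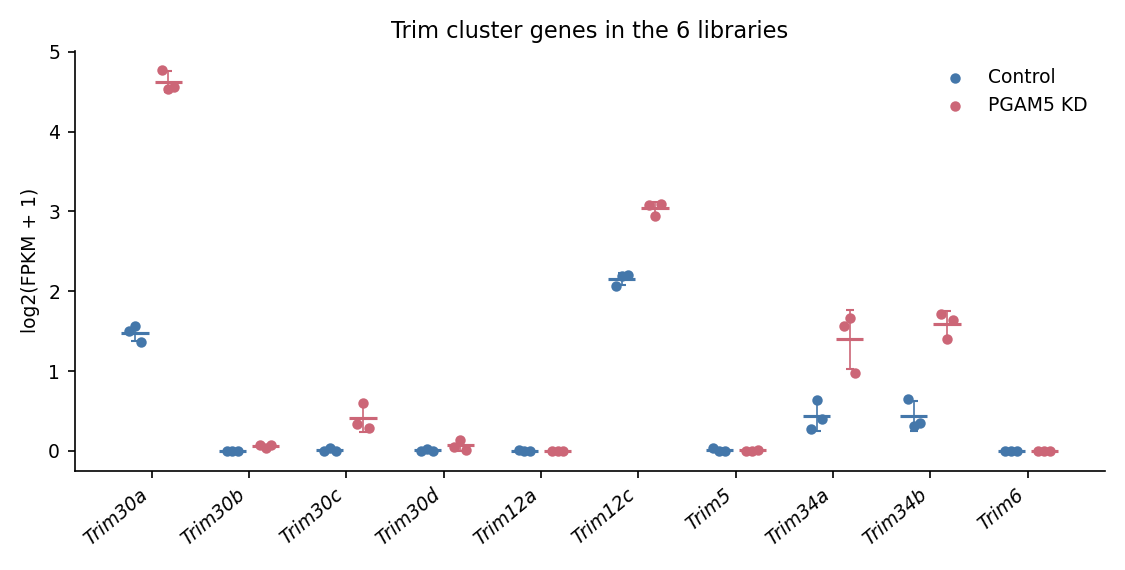
Expression of the 10 genes on the log2(FPKM + 1) scale, with a point for each library, the mean as a line and the SD as a bar (n = 3 per group). Trim30a, Trim12c, Trim34a and Trim34b are the 4 genes above the floor in both groups, and their PGAM5 KD libraries lie above their control libraries.

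Trim12c was the only member of the Trim12 and Trim5 group with a measurable level in these cells. Trim12c (ENSMUSG00000057143, minus strand, 104338754 to 104353362) encodes a protein reported to act with TRAF6 in the induction of interferon and NF-κB. It was at 3.18, 3.58 and 3.60 FPKM in control and 7.46, 6.68 and 7.53 FPKM in PGAM5 KD libraries. Each group was tight and the 2 did not overlap. The means were 3.45 ± 0.237 and 7.22 ± 0.470 FPKM (SD, n = 3), a ratio of 2.09, and the difference was 0.88 on the log2(FPKM + 1) scale (standard error 0.07). Its close relatives Trim12a (ENSMUSG00000066258) and Trim5 (ENSMUSG00000060441) had 1 and 3 fragments over all 6 libraries. At this depth 3 fragments in 1 library are worth 0.0213 to 0.0286 FPKM for Trim12a and 0.0333 to 0.0448 FPKM for Trim5, so levels below these could not be detected. Trim12c held at least 98.6% of the fragments of the 3 genes in every library, although the coding sequences are over 96% identical, and the summed difference of 1.06 on the log2 scale of CPM was nearly that of Trim12c alone (1.07).

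Trim34a and Trim34b were low in control cells and higher in every PGAM5 KD library. Trim34a (ENSMUSG00000056144, plus strand, 104244457 to 104262234) was at 0.212, 0.554 and 0.316 FPKM in control and 1.95, 2.17 and 0.965 FPKM in PGAM5 KD libraries. Trim34b (ENSMUSG00000090215, plus strand, 104329471 to 104336909) was at 0.565, 0.241 and 0.277 FPKM in control and 2.29, 1.64 and 2.13 FPKM in PGAM5 KD libraries. The groups were apart for both genes, but PGAM5 KD replicate 3 was low for Trim34a and not for Trim34b. The means of Trim34a were 0.361 ± 0.175 and 1.69 ± 0.640 FPKM, and those of Trim34b 0.361 ± 0.178 and 2.02 ± 0.339 FPKM (SD, n = 3). The differences on the log2(FPKM + 1) scale were 0.96 (standard error 0.21) and 1.15 (standard error 0.15). This scale compresses low values, and with a constant of 0.1 in place of 1 they were 1.95 and 2.25.

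The split of fragments between the 2 Trim34 genes varied from library to library. Trim34a held 34.5%, 76.3% and 61.5% of the fragments of both genes in the control libraries, from totals of 29, 38 and 26 fragments, and 54.4%, 65.0% and 38.9% in the PGAM5 KD libraries, from totals of 204, 157 and 157. In PGAM5 KD libraries the exact (Clopper-Pearson) 95% intervals of replicate 2, from 57.0% to 72.4%, and of replicate 3, from 31.2% to 46.9%, did not overlap, nor did those of control replicates 1 and 2. Replicates of 1 group therefore differed in the split by more than counting error, and neither group stood to 1 side of the other. The sum was steadier in control libraries, where its SD was 17.2% of the mean against 48.6% for Trim34a and 49.2% for Trim34b. In PGAM5 KD libraries the corresponding values were 18.4%, 37.8% and 16.8%. The summed level was 1.60, 1.88 and 1.33 CPM in control and 9.28, 8.64 and 6.44 in PGAM5 KD libraries, a ratio of means of 5.06. The difference for the pair (2.34 on the log2 scale, standard error 0.22) lay between those of the single genes on the same scale, 2.26 and 2.57.

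**Figure D3:**
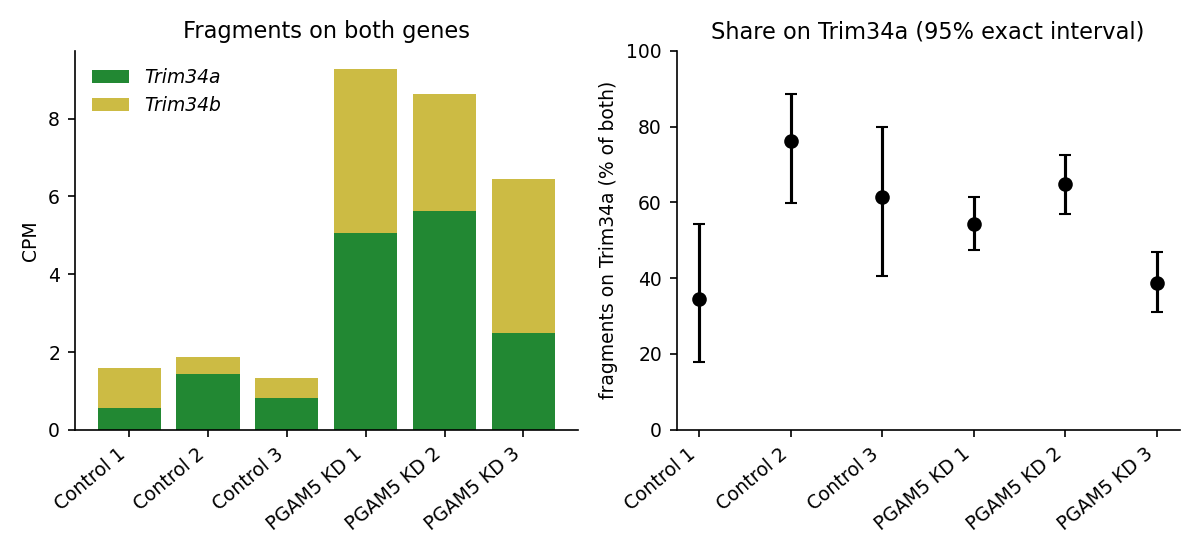
Left, CPM on Trim34a and Trim34b in each library, stacked. Right, the share of these fragments on Trim34a with its exact 95% binomial interval, which ranges from 34.5% to 76.3% in control and from 38.9% to 65.0% in PGAM5 KD libraries.

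Trim6 (ENSMUSG00000072244, plus strand, 104218793 to 104235152), at the other end of the cluster from Trim30d, had 0 fragments in all 6 libraries. A level of up to 3 fragments, which is 0.0251 to 0.0337 FPKM depending on the library, cannot be told from 0. The pseudogene Trim30e-ps1, beside Trim30d, was also at 0 in every library.

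Per length of exon, the order of the genes differed between the groups. In control libraries Trim12c (3.18 to 3.60 FPKM) was above Trim30a (1.58 to 1.95 FPKM), and both were above Trim34a and Trim34b, whose ranges overlapped. In PGAM5 KD libraries Trim30a (22.2 to 26.3 FPKM) was above Trim12c (6.68 to 7.53 FPKM), followed by Trim34a and Trim34b, whose ranges again overlapped. All other members were at 0.513 FPKM or less in every library. Of the fragments on the 10 genes together, Trim30a held 30.5% to 35.4% in control and 72.2% to 74.0% in PGAM5 KD libraries. The 10 genes together had 21.9 ± 1.25 CPM in control and 134 ± 11.1 in PGAM5 KD libraries (SD, n = 3). In RNA from whole cultures, fewer cells that express a gene and less of its RNA per cell cannot be told apart.

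**Figure D4:**
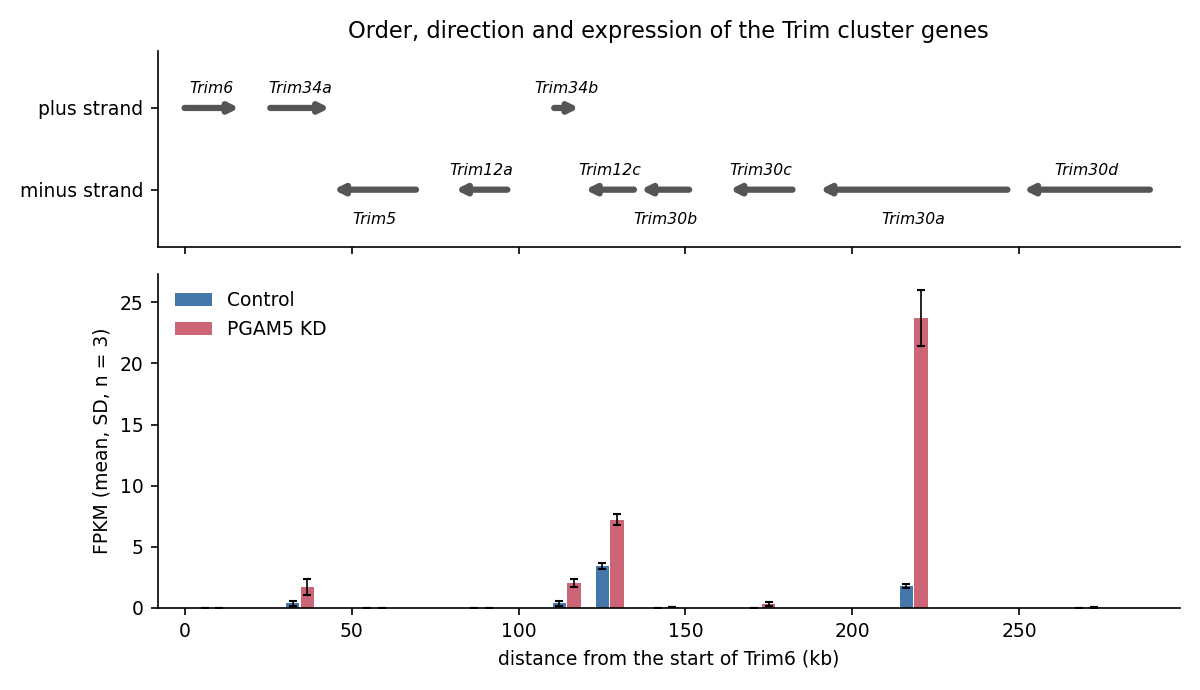
Top, position and direction of the 10 genes by distance from the start of Trim6, in kb. Bottom, mean FPKM in control and PGAM5 KD libraries at the middle of each gene (bars from 0, SD, n = 3). Levels above 1 FPKM are confined to Trim34a, Trim34b, Trim12c and Trim30a, with silent or nearly silent genes between them.

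Of the 10 genes, 4 had a mean of at least 1 FPKM over the 6 libraries and entered limma's fit across all genes. Trim34a and Trim34b entered only through their PGAM5 KD level, so a count over the 4 says nothing about the 10. As a description, 4 of the 4 passed an adjusted p-value of 0.05 with a higher level in PGAM5 KD cells, as 16.8% of all genes tested did (31.7% in either direction). Trim30a and Trim34b also had a log2 fold change above 1, as 0.787% of all genes tested had. All 4 had every PGAM5 KD library above every control library, which held for 24.2% of all genes tested (22.9% had every PGAM5 KD library below). By limma 0 members were lower, against 14.9% of all genes tested and 0.531% with a log2 fold change below -1. The count of lower members was also 0 at an unadjusted p-value under 0.05 and with voom, the limma fit on recovered fragments. Over all genes tested, 2122 of 10540 were lower unadjusted and 1955 of 10535 with voom.

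Other Trim genes with a known part in antiviral or inflammatory signaling are encoded elsewhere in the genome. Whether they differed less than the cluster was not tested, since the cluster was chosen for its difference. Of 14 in the list, 12 were tested, of which 4 were higher and 1 was lower (adjusted p-value under 0.05, limma) and 7 were not called. Over all genes tested, 16.8% were higher and 14.9% lower. The median log2 fold change was 0.11, against 0.01 for all genes tested. Pml (TRIM19), which builds nuclear bodies, rose from 6.59 ± 0.125 to 11.4 ± 0.232 FPKM (log2 fold change 0.71, standard error 0.05, adjusted p = 9.29e-05 from limma). Trim14, an adaptor of the antiviral protein MAVS, rose from 3.58 ± 0.602 to 5.83 ± 0.584 FPKM (0.58, standard error 0.11, adjusted p = 0.00951 from limma). Trim21, the cytosolic receptor for antibody-bound virus, rose from 4.36 ± 0.215 to 6.51 ± 0.692 FPKM (0.48, standard error 0.08, adjusted p = 0.00508 from limma). The other 2 called genes, named after their values were seen, were Trim26, at 0.26 on the same scale, and Trim25, a ligase of the RNA sensor RIG-I, which was lower at -0.14 (adjusted p = 0.0282 from limma). The call for Trim25 held only without PGAM5 KD replicate 2 when libraries were left out 1 at a time, and was lost in the other 5 fits with adjusted p-values up to 0.0822. Trim38 and Mefv were below the filter.

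Of the remaining 47 genes whose symbol begins with Trim, 13 were tested and 15 were at 0 in all libraries. Of the 13 tested, 0 were higher and 4 lower by limma at an adjusted p-value under 0.05, with 0 higher and 7 lower at an unadjusted p-value under 0.05, and 0 higher and 6 lower with voom. Over all genes, 16.8% were higher and 14.9% lower at the adjusted threshold, or 31.7% in either direction. Unadjusted, 2388 of 10540 genes were higher and 2122 lower, and with voom 1938 of 10535 were higher and 1955 lower. The median of the list was -0.13 on the log2 scale. Trim33, a corepressor of SMAD signaling, fell from 9.86 ± 0.955 to 6.65 ± 0.120 FPKM (log2 fold change -0.50, standard error 0.07, adjusted p = 0.00233 from limma). Trim35 was lower at -0.27 and Trim39 at -0.29, the latter with a call that held only without control replicate 1 and was lost in the other 5 such fits (adjusted p up to 0.124 from limma). The fourth, Trim28 (KAP1, a corepressor of endogenous retroviruses), was named after its values were seen and was lower at -0.19. With the tables rescaled to TPM, 7 of the 13 were lower, as were 2282 of all 10540 genes tested, against 1575 without rescaling. Below the filter, Trim55 was listed at 0 in each control library and at 0.856, 0.828 and 1.23 FPKM in the PGAM5 KD libraries, and Trim47 averaged 0.101 ± 0.0598 and 0.365 ± 0.108 FPKM. Both were named after their values were seen and were not tested at this filter. With no filter on low values 1 gene of the list was called higher, as were 1323 of all 20816 genes in that fit.

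**Figure D5:**
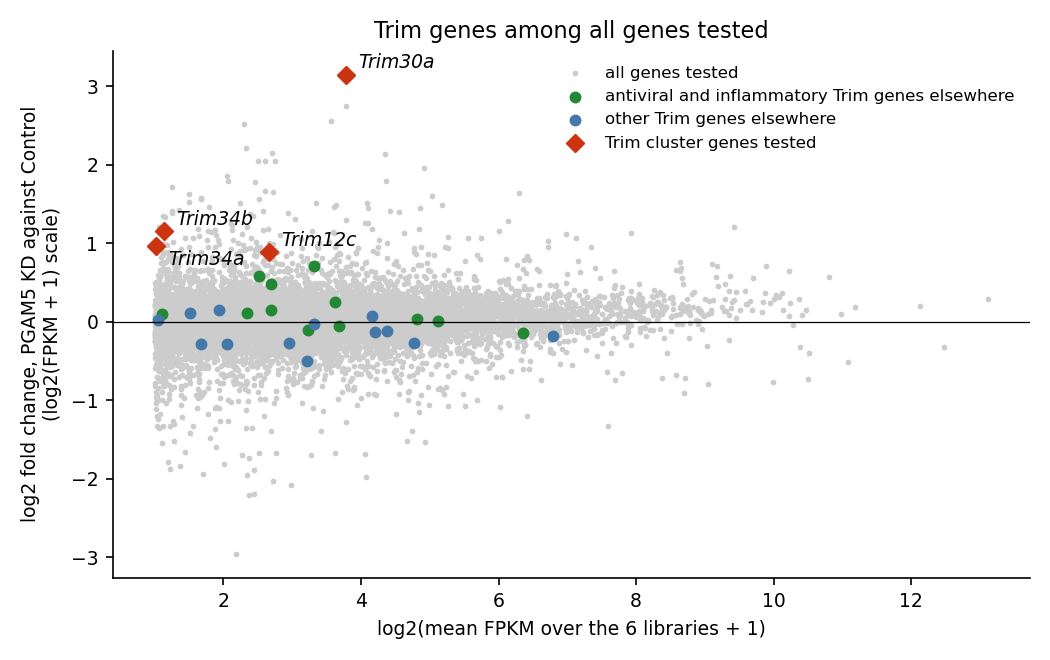
Log2 fold change between PGAM5 KD and control libraries, on the log2(FPKM + 1) scale, against the log2 of the mean FPKM + 1 over all libraries, for the 10540 genes tested. Diamonds are the 4 Trim cluster genes tested, at 0.88 to 3.15, and filled circles are Trim genes encoded elsewhere, which lie between -0.50 and 0.71.

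Around the cluster the chromosome was nearly silent. Within 1 Mb of its ends the annotation has 163 other genes, of which 153 were at 0 in all libraries, among them all 104 olfactory receptor genes and pseudogenes. Over the whole series, 33716 of 54532 genes were at 0 in all libraries. Of 8 other genes within the span of the cluster, 6 were at 0 in all libraries. The 3 neighbours tested were the pseudogenes Dnajc19-ps and Gm5900 and the gene Fam160a2, with log2 fold changes of -0.05, -0.46 and -0.23. Of these 3, which were named after their values were seen, 0 were called by limma, 0 passed an unadjusted p-value of 0.05 and 1 was called lower with voom. Over all genes tested, 31.7% were called by limma. Unadjusted, 2388 of 10540 were higher and 2122 lower, and with voom 1955 of 10535 were lower.

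A list of 15 genes carries the signal from TLR4 to interferon and from interferon to the nucleus. Of the 14 tested, 4 were higher, 1 was lower and 9 were not called, with a median log2 fold change of 0.04 over the list. Ifnb1, which encodes interferon-β, was below the filter, at 2.06, 0.661 and 0.615 FPKM in control and 0.425, 0.514 and 1.26 FPKM in PGAM5 KD libraries, with overlapping groups. Among all genes tested, 31.7% were called in either direction. Stat2, a transcription factor of the interferon response, rose from 6.28 ± 0.559 to 12.1 ± 0.225 FPKM (0.85, standard error 0.06, adjusted p = 0.00018 from limma). Irf9, which binds the ISRE together with Stat2, was at 12.4 ± 0.851 and 12.7 ± 0.495 FPKM and was not called (adjusted p = 0.796 from limma). Irf7, which amplifies interferon induction, rose from 15.2 ± 0.698 to 48.1 ± 2.05 FPKM (1.60, standard error 0.05, adjusted p = 7.42e-06 from limma). Ticam1 was higher at 0.25 and Traf3 lower at -0.17. With 1 library left out, Ticam1 kept its call only without control replicate 1 or PGAM5 KD replicate 2 and Traf3 only without PGAM5 KD replicate 1, with adjusted p-values up to 0.0788 and 0.137 from limma in the other fits. The receptor genes Ifnar1 and Ifnar2, with log2 fold changes of -0.0030 and 0.05, were not called. Ifnb1, Irf9, Ticam1, Traf3, Ifnar1 and Ifnar2 were named after their values were seen.

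TRIM30a is known to act on the relay from TLR4 to NF-κB. Of 13 tested genes from Tlr4 to the IKK complex and Nlrp3, 1 was higher, 0 were lower and 12 were not called by limma, where 16.8% of all genes tested were higher and 14.9% lower. At an unadjusted p-value under 0.05, 3 were lower, as were 2122 of all 10540 genes tested. With voom 2 were called lower, as were 1955 of 10535 genes. Rescaled to TPM, 4 were lower, as were 2282 of 10540 genes. Nlrp3 rose from 48.7 ± 1.54 to 62.1 ± 2.05 FPKM (log2 fold change 0.34, standard error 0.04, adjusted p = 0.00104 from limma). Tab2 and Tab3, looked up because TRIM30a acts on their proteins, were at 30.1 ± 1.07 and 3.94 ± 0.924 FPKM in control and 28.0 ± 1.35 and 3.25 ± 0.438 FPKM in PGAM5 KD libraries (adjusted p = 0.159 and 0.329 from limma). Protein levels were not measured in these data.

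Over the 6 libraries, the genes outside the cluster whose log2(FPKM + 1) followed that of Trim30a most closely were Ptgs2, Ifit1, Tnfrsf13b, Selenom and Cap1, with Pearson's r from 0.9991 to 0.9996. Within the cluster, r with Trim30a was 0.989 for Trim12c, 0.975 for Trim34b and 0.903 for Trim34a. These points fall into 2 groups of 3 libraries, so r mostly restates the difference between the groups, and 12.0% of all genes tested had an r above 0.9. The sizes of the differences varied widely. Ptgs2 went from 37.5 ± 1.73 to 118 ± 5.02 FPKM and Ifit1 from 8.21 ± 0.352 to 24.1 ± 0.402 FPKM, while Cap1 differed by 0.28 on the log2 scale.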

How the data were processed

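RNA-seq of poly(A) RNA from 6 libraries of LPS-treated iBMDMs was deposited by the authors as FPKM, 1 table per library. The submitters' processing notes name HISAT2 2.0.5, featureCounts 1.5.0-p3 and mm10. Their protocol describes directional and non-directional libraries alike. The annotation release, the strand setting and the handling of fragments that match several genes are not given in the sources used here. Gene names, positions and exon lengths came from GENCODE M21 (GRCm38, the same assembly as mm10), which holds 54495 of the 54532 identifiers. FPKM times exon length fell on whole multiples of 1 step, within 0.01 fragments, for 96.8% to 97.1% of values under 1000 fragments, which gave the depth and the fragment counts. The values of all 10 genes were whole within this tolerance in every library. Groups and replicate numbers came from the sample titles, which name no batch. Replicates differed by more than sampling noise (chi-square per degree of freedom 4.82 to 8.16) and all 6 were kept.

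Log2(FPKM + 1) was fitted with limma 3.58.1 in R 4.3.3 (lmFit, then eBayes with trend). This covered 10540 genes averaging 1 FPKM or more, with two-sided p-values adjusted by Benjamini-Hochberg. Fold changes are on that scale, which understates those of low genes. On simulated data for this comparison, 193 of 200 genes changed 2.5-fold were recovered among 10540, with 4.93% false among the calls. The noise was drawn as normal and the changed genes came from those above about 3 FPKM. Recovery of lower genes, such as Trim34a and Trim34b, was therefore not simulated, and far fewer genes were changed than the 3346 called in the data. Paralogs were compared by global alignment of coding sequences with Biopython 1.88, and promoters came from RefSeq (GRCm38.p6). The genes and lists were chosen with earlier results of these data known. Beyond the 10 genes and Pgam5, at most 3 called genes of each list (by size of change), the 5 genes most correlated with Trim30a and genes overlapping a member were named by rule, and others are marked. A gene that the rule named in the interferon list is not reported here. Alternatives were a constant of 0.1, no filter, a mean of at least 5 FPKM, TPM, quantile normalization, no trend, a replicate block, voom on recovered fragments, leaving out each library, and sums over paralogs.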

Additional observations from a re-analysis of the deposited data

How the results depend on the processing

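Over the alternatives that could fit them, Trim30a, Trim12c, Trim34a and Trim34b had log2 fold changes of 3.07 to 3.72, 0.84 to 1.06, 0.83 to 2.15 and 1.09 to 2.55, in a direction known when the genes were chosen. The upper ends came from voom on the recovered fragments, which adds no constant to FPKM. The number of the 10 genes past both thresholds was 4 with a constant of 0.1 and with voom, and 3 with TPM and with quantile normalization. It was 1 with a mean of at least 5 FPKM, and 2 to 3 when 1 library was left out. The share of all genes past both thresholds was counted for the reported fit only, so these counts show only how calls move with the setting. At a mean of at least 5 FPKM, 2 passed the adjusted p-value, since Trim34a and Trim34b were not tested, and 1528 of 7092 genes were called higher. With no filter on low values 5 passed it, where 1323 of 20816 genes were called higher. Trim34a and Trim34b also moved with rescaling to TPM, to 1.49 and 1.76.

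Among antiviral Trim genes elsewhere, 0 were lower with no trend, with the replicate block and in most fits without 1 library (range 0 to 1). In the interferon list, 2 were lower with TPM and 0 with no filter, with no trend and without 1 library (range 0 to 1). In the relay from TLR4, 4 were lower with TPM, 2 with no trend and 2 with voom. Of other Trim genes, 7 were lower with TPM and 1 was higher with no filter. Among chromosomal neighbours 1 was lower with no trend and with voom, and 0 to 1 without 1 library. Over all genes, 52.9% of calls were higher in PGAM5 KD cells as reported, 32.3% with TPM and 45.5% with quantile normalization. Genes called lower numbered 1575 as reported, 2282 with TPM, 1572 with no trend and 1955 with voom. The cause of these shifts was not tested.

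Same-numbered libraries of the 2 groups did not deviate together (correlations of deviations from the group means -0.020, 0.016 and -0.052), and no control library correlated best with its own number. With the replicate block, 2652 genes were called in place of 3346. Depth limits Trim30b, Trim30c, Trim30d, Trim12a, Trim5 and Trim6, which had at most 16 fragments in any library.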
